A study of Mus musculus with 6 samples.

Results

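The genes described here are 37 genes of fibroblast growth factor (FGF) signalling, listed by name for their known place in the pathway. No measured value enters the rule, although the list was drawn up with earlier results of these data known. They comprise 2 ligands known from pancreatic mesenchyme, 10 other secreted ligands, 4 intracellular FGF homologous factors, 5 receptors, 5 co-receptors or receptor partners, 8 feedback inhibitors and 3 ETS transcription factors. Of these, 36 were found among the 37224 genes counted, *Spry3* was not analysed here, and 28 had enough counts to be tested. RNA was sequenced from whole embryonic pancreata of wild-type (wt) C57/Bl6J mice collected 13.5 or 15.5 days post coitum (dpc). Each stage had 3 samples that the study treated as biological replicates. Each sample was a pool of pancreata from up to 3 embryos, so that differences between individual embryos were not measured. No transgene, treatment or mutation was present in either group, and stage was the only labelled difference between them. The deposited counts summed to 12895732 to 16389237 per sample at 13.5 dpc and to 10546028 to 12491550 at 15.5 dpc.

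FGF ligands are secreted proteins that bind receptor tyrosine kinases with the help of heparan sulfate or Klotho co-receptors, and the activated receptors signal through Ras and the kinase ERK. ERK activity turns on ETS factors of the *Etv4* and *Etv5* family as well as Sprouty, Spred and Dusp proteins, which in turn dampen the signal. In the embryonic pancreas, Fgf10 from the mesenchyme acts on Fgfr2 of the epithelium and is known for maintaining the multipotent progenitors, which give rise to acinar, duct and endocrine cells as development proceeds.

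Most of the FGF genes that differed between the stages were lower at 15.5 dpc. By edgeR's quasi-likelihood test with Benjamini-Hochberg adjustment over all 15578 genes tested, 12 of the 28 tested members fell, 1 rose and 15 did not pass an adjusted p of 0.05. The genes that fell were the ligands *Fgf5* and *Fgf9*, the intracellular factors *Fgf11* and *Fgf13*, the receptors *Fgfr2*, *Fgfr4* and *Fgfrl1*, the receptor partner *Flrt3*, the inhibitors *Spred1* and *Spred3*, and the ETS factors *Etv4* and *Etv5*. The gene that rose was the receptor *Fgfr3*. The called members made up 46.4% of those tested, whereas 22.3% of all genes were called, 11.6% as higher and 10.7% as lower at 15.5 dpc. The fitted log2 fold change was negative for 23 members and positive for 5, with a median of -0.40 over the members and -0.0108 over all genes tested. Among the 23 are *Fgf5* and *Kl*, whose low counts passed the filter only through the earlier stage. The 3 samples of 1 stage lay wholly above those of the other for 19 of the 28 members, and for 46.4% of all genes tested. With any 1 of the 13.5 dpc samples left out, 5 members were called, and without 15.5 dpc replicate 3, 6 were called. The share of all genes called also fell in these fits, to between 7.83% and 9.05%. *Fgf9*, *Fgfr2*, *Fgfr4* and *Etv5* were called in every alternative analysis run. *Fgf5* was called in those in which it was tested, but passed the filter on low counts only through its 13.5 dpc samples. The other 8 calls were each lost in at least 3 of the fits that left out a sample.

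**Figure D1:**
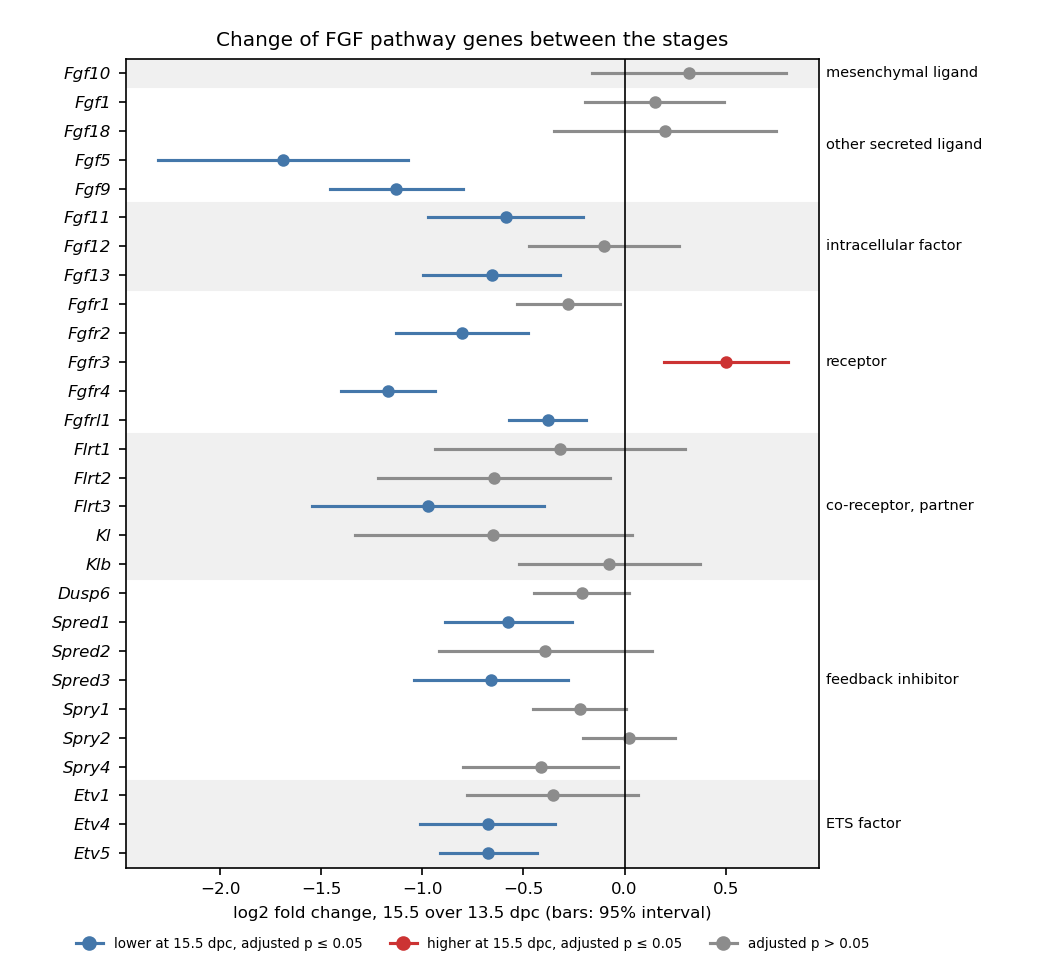
Fitted log2 fold change of each tested FGF gene at 15.5 over 13.5 dpc (points) with its 95% interval (bars), grouped by role, from edgeR's quasi-likelihood fit over 3 samples per stage. Blue points mark the 12 genes called lower, the red point marks *Fgfr3*, the 1 gene called higher, and grey points mark the 15 genes that were not called.

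Among the receptors, *Fgfr4* gave the smallest adjusted p of all members. *Fgfr4* (chr13:55152640-55168759, mm10) encodes a receptor tyrosine kinase of endodermal tissues, with normalised counts (counts scaled to a common library size) of 920.3, 860.0 and 881 at 13.5 dpc against 357, 420.3 and 404 at 15.5 dpc. The stages were well apart and the samples within each stage lay close together. The level at 15.5 dpc was 44.4% of that at 13.5 dpc, a change of -1.17 on the log2 scale (standard error 0.10, 95% interval -1.40 to -0.94, adjusted p = 0.000739).

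*Fgfr2*, the receptor through which Fgf10 acts, had normalised counts of 1398, 1316 and 1521 at 13.5 dpc against 659, 929 and 836 at 15.5 dpc. Again no sample of one stage reached the range of the other, although replicate 1 of the later stage was the lowest of its group. The log2 fold change was -0.80 (standard error 0.140, 95% interval -1.13 to -0.48, adjusted p = 0.00803). The gene model used for counting *Fgfr2* starts 2856542 bases upstream of the RefSeq start. This long model shares 314 of its 7240 exon bases with the distant gene *Ctbp2* on the same strand. A small part of the *Fgfr2* reads therefore cannot be assigned with certainty. The counts do not separate the splice forms of the receptor that differ in ligand binding.

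*Fgfr3*, a receptor best known for restraining bone growth, moved the other way. Its samples had 467, 469 and 551 normalised counts at 13.5 dpc against 596, 775 and 730.3 at 15.5 dpc, with the lowest later sample above the highest earlier one. The log2 fold change was 0.50 (standard error 0.131, 95% interval 0.19 to 0.81, adjusted p = 0.0336). This call was lost with any 1 of the 13.5 dpc samples or 15.5 dpc replicate 3 left out, with log2 fold changes of 0.43 to 0.60 over all 6 fits that left out a sample. When counts were scaled by library size alone, which lowered the median of all genes to -0.22 at 15.5 dpc, the log2 fold change of *Fgfr3* was 0.30 (adjusted p = 0.210). With a trend with gene length removed it was 0.69 (adjusted p = 0.000552), and with replicate number also added as a block it was 0.70 (adjusted p = 0.00175).

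*Fgfrl1*, a receptor without the kinase domain that binds ligands and heparan sulfate, fell by a smaller amount. Its samples held 1444, 1398 and 1437 normalised counts at 13.5 dpc against 1135, 1090.1 and 1065 at 15.5 dpc, which is -0.38 on the log2 scale (standard error 0.0815, 95% interval -0.57 to -0.19, adjusted p = 0.0173). The narrow spread within each stage accompanied the small change. With replicate number added as a block, the call of *Fgfrl1* was lost (adjusted p = 0.0622). *Fgfr1*, the receptor most widely found in mesenchyme, had 2317, 2104 and 2225 normalised counts at 13.5 dpc against 1616, 2034 and 1826 at 15.5 dpc. These values did not overlap either, but the log2 fold change of -0.28 (95% interval -0.53 to -0.02) did not pass the adjusted test (adjusted p = 0.103). It was called with library size alone (-0.48, adjusted p = 0.0465) and without 15.5 dpc replicate 2 (-0.35, adjusted p = 0.0191), and was near 0 when a trend with gene length was removed (-0.04, adjusted p = 0.723).

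**Figure D2:**
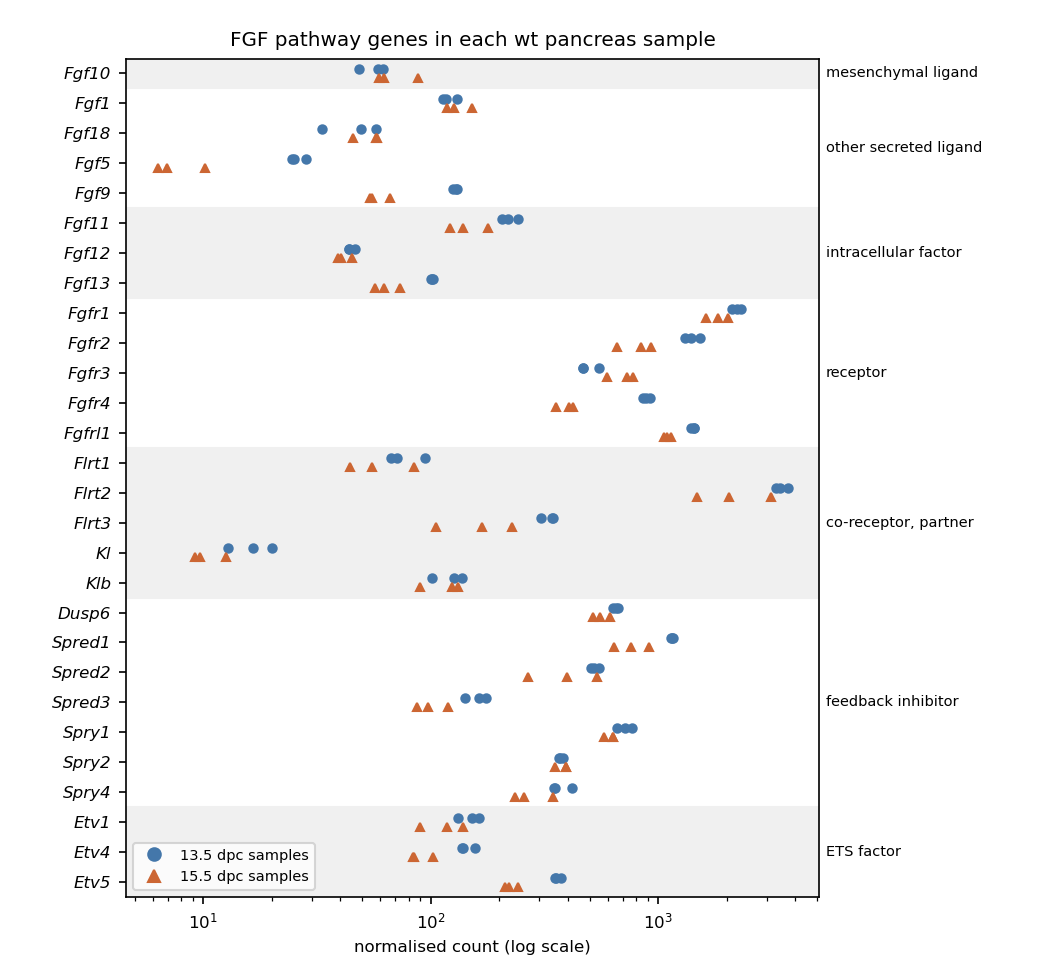
Normalised counts (log axis) of the 28 tested FGF genes in each of the 3 wt pancreas samples at 13.5 dpc (circles) and at 15.5 dpc (triangles), grouped by role. All 5 receptors have stages that do not overlap, with *Fgfr3* higher and the other 4 lower at 15.5 dpc, while *Spry2*, *Fgf12*, *Fgf1* and *Fgf10* overlap between the stages. Of all genes tested, 46.4% do not overlap.

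The receptors were next compared within each sample, after division of counts by exon length and scaling to a common sum (TPM). In this comparison the scaling between libraries cancels, but differences between libraries that follow gene length do not. *Fgfr4* has 3542 exon bases, against 6907 to 8120 for *Fgfr1*, *Fgfr2* and *Fgfr3*. Of the summed TPM of the 4 signalling receptors, *Fgfr4* took 32.2%, 32.3% and 30.6% at 13.5 dpc against 21.1%, 19.5% and 20.4% at 15.5 dpc. *Fgfr3* took 8.40%, 9.03% and 9.81% at 13.5 dpc against 18.1%, 18.4% and 18.9% at 15.5 dpc. *Fgfr2* went from 24.7% ± 1.04 to 20.2% ± 1.04 and *Fgfr1* from 34.5% ± 0.850 to 41.0% ± 0.793 (SD, n = 3 per stage). None of the 4 shares overlapped between the stages, and *Fgfr1* held the largest share in each of the 6 samples. The summed TPM was 166 to 187 at 13.5 dpc and 59.7 to 116 at 15.5 dpc. Unlike the normalised counts, TPM has no correction for the composition of a library, so the 2 scales differ between the stages. In the edgeR fit *Fgfr1* at 15.5 dpc stood at 82.4% of its earlier level and *Fgfr3* at 141%. *Fgfr3* itself had 16.1 ± 2.00 and 16.5 ± 5.33 TPM in the 2 stages, with samples that overlapped, and *Fgfr1* 60.9 ± 3.14 and 36.4 ± 11.4, so a larger share is one relative to the other receptors and not a higher TPM. The TPM ratio of *Fgfr3* to *Fgfr4* was 0.260, 0.280 and 0.321 at 13.5 dpc against 0.857, 0.946 and 0.927 at 15.5 dpc, a difference of 1.67 on the log2 scale. *Fgfr3* over *Fgfr2* differed by 1.31 and *Fgfr1* over *Fgfr2* by 0.53 on the same scale. An exact two-sided permutation test gave p = 0.1 for each of these 3 ratios, the smallest value that 3 samples against 3 can give, and the ratios were chosen after the values were seen.

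**Figure D3:**
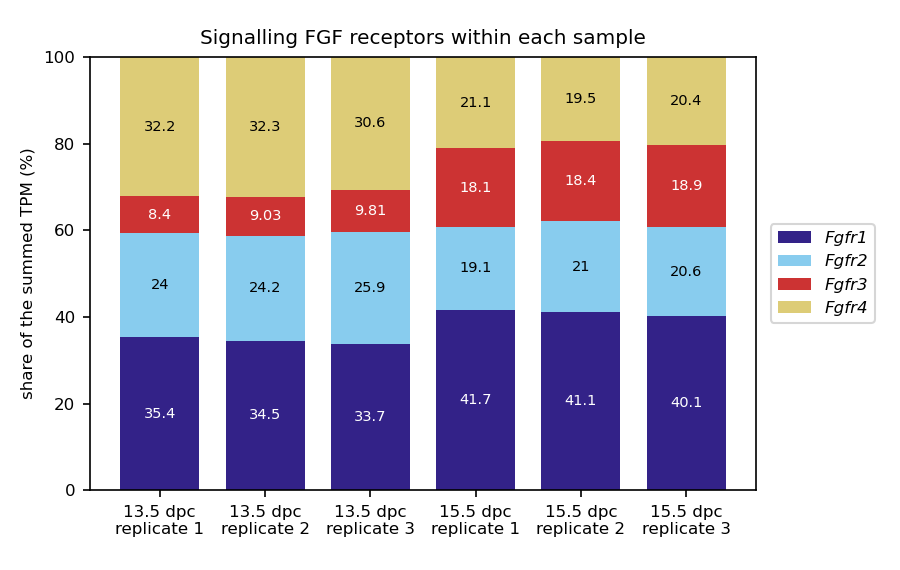
Share of the summed TPM (counts per exon length) of *Fgfr1*, *Fgfr2*, *Fgfr3* and *Fgfr4* taken by each receptor, in percent, in each of the 6 samples. The *Fgfr3* segment is 8.40% to 9.81% at 13.5 dpc and 18.1% to 18.9% at 15.5 dpc, while the *Fgfr4* segment is 30.6% to 32.3% and 19.5% to 21.1%.

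The sequences upstream of the start sites were searched for CCGGAA, which is the GGAA core bound by ETS factors with 2 bases before it. Its reverse complement TTCCGG was searched for as well (the 2 forms can overlap by 4 letters). The 250 bases before the RefSeq start (assembly GRCm38.p6) are shown for 3 called genes whose RefSeq start is the same as that of the gene counted. They are *Fgf5* (chr5:98253934-98254183, plus strand), with the largest decrease, *Fgfrl1* (chr5:108693979-108694228, plus strand) and *Fgfr3* (chr5:33721474-33721723, plus strand), the only gene that rose. Each is written 5′ to 3′ with the matches in capitals.
Fgf5: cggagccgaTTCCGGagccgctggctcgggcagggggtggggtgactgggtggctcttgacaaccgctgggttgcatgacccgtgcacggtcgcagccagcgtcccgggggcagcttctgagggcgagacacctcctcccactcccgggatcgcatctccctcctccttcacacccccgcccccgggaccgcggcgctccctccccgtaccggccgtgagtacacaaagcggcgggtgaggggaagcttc
Fgfrl1: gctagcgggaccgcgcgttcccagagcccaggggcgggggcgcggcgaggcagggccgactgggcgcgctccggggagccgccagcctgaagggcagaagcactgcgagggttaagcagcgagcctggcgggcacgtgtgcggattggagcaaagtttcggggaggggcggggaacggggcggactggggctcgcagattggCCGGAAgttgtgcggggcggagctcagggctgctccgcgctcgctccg
Fgfr3: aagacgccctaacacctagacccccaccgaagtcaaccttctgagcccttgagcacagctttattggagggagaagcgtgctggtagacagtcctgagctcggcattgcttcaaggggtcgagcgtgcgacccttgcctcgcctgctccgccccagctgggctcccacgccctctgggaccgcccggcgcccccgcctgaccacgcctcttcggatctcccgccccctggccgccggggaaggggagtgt

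The match begins 241 bases before the start of *Fgf5* and 48 bases before that of *Fgfrl1*. Neither form is in the window of *Fgfr3*, although that window does hold the shorter GGAA. The search used 37 windows of 28 FGF genes, some of them far from the start of the gene model counted. Of these windows 5 held a match, 1 each of *Fgf5*, *Fgf12*, *Fgfr4*, *Fgfrl1* and *Flrt2*. These 28 genes are not the same as the 28 tested, and *Fgf1* and *Spry4*, on chromosome 18, were left out of the search. Of all 32851 windows of this length, 12% held one, so the share over the FGF genes was near that of all windows. A match is a description of the letters and was not tested as a binding site.

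Of the 5 secreted ligands tested, *Fgf9* and *Fgf5* fell. *Fgf9* (chr14:58070547-58112337, mm10) encodes a secreted ligand with roles in epithelial and mesenchymal growth of several organs, and had 125, 129 and 130.0 normalised counts at 13.5 dpc against 66.4, 54.2 and 55.4 at 15.5 dpc. The groups were far apart for its low counts. The log2 fold change was -1.13 (standard error 0.140, 95% interval -1.46 to -0.80, adjusted p = 0.00230), or 45.8% of the earlier level. *Fgf5*, known as a regulator of the hair cycle, had 24.6, 28.3 and 25.1 normalised counts at 13.5 dpc against 6.92, 10.2 and 6.30 at 15.5 dpc. Its log2 fold change of -1.69 (standard error 0.265, 95% interval -2.31 to -1.07, adjusted p = 0.00537) was the most negative of the 28 tested members. With counts of 27, 33 and 35 at 13.5 dpc and only 5, 10 and 5 at 15.5 dpc, *Fgf5* passed the filter on low counts through the earlier stage alone, where it is high. It was not tested when at least 10 counts were required in each sample, so its test gives less support than those of the other called genes.

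The remaining tested ligands had positive fitted changes that did not pass the test. *Fgf10*, the mesenchymal ligand of the pancreatic epithelium, had 48.3, 61.7 and 58.9 normalised counts at 13.5 dpc against 62.3, 87.9 and 59.2 at 15.5 dpc. The stages overlapped, and the log2 fold change of 0.32 had a 95% interval of -0.16 to 0.80 (adjusted p = 0.281). Thus a modest decrease of *Fgf10* and an increase of up to 0.80 on the log2 scale were not distinguished at this depth. *Fgf1*, a ligand of all the signalling receptors, changed by 0.15 (95% interval -0.19 to 0.49) and *Fgf18*, known from lung and skeletal growth, by 0.20 (95% interval -0.35 to 0.75), and the direction of these last 2 turned when counts were scaled by library size alone.

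A further 7 secreted ligands were too low to be tested. *Fgf7*, which like Fgf10 is a mesenchymal ligand of Fgfr2, had counts of 3, 1 and 5 at 13.5 dpc against 2, 6 and 7 at 15.5 dpc. Its summed counts at 15.5 over 13.5 dpc, each divided by the summed effective library sizes of the stage, gave a ratio of 2.44, with a counting interval of 1.00 to 6.33. *Fgf8*, an early patterning ligand, had counts of 6, 8 and 5 at 13.5 dpc against 1, 1 and 2 at 15.5 dpc, a ratio of 0.309 (counting interval 0.0763 to 0.928). These intervals cover counting error only and not the spread between samples. *Fgf20* had 37 and 17 reads in the 2 stages, *Fgf16* had 33 and 28, and *Fgf2* had 27 and 20, with ratio intervals that included 1. *Fgf21*, a metabolic hormone, had 1 read per stage, and *Fgf22* had 0, which allows up to 3 counts in each stage.

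The intracellular FGF homologous factors are not secreted and are known for binding voltage-gated sodium channels, mainly in neurons. *Fgf11* had 241, 218 and 205 normalised counts at 13.5 dpc against 122, 179 and 139 at 15.5 dpc (log2 fold change -0.59, standard error 0.164, adjusted p = 0.0412). *Fgf13* had 101, 100.3 and 102 against 56.7, 62.4 and 73.0 (log2 fold change -0.66, standard error 0.146, adjusted p = 0.0191). Neither gene overlapped between the stages. The call of *Fgf11* was lost with replicate number added as a block (adjusted p = 0.0618). *Fgf12* differed by -0.10 (95% interval -0.47 to 0.27, adjusted p = 0.700), and *Fgf14*, with 29 and 15 reads in the 2 stages, was not tested. The summed level of 13 neuron and glia markers was 245 to 268 library-scaled counts (CPM) at 13.5 dpc and 204 to 243 at 15.5 dpc. Of these markers 5 fell and 2 rose, and none was at 0. The part of this difference in the change of *Fgf11* and *Fgf13* was not tested.

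Of the co-receptors and receptor partners, only *Flrt3* was called. Flrt proteins are adhesion molecules of the cell surface that bind FGF receptors. *Flrt3* had 340, 346 and 307 normalised counts at 13.5 dpc against 105, 227 and 169 at 15.5 dpc, a log2 difference of -0.97 (standard error 0.244, 95% interval -1.54 to -0.40, adjusted p = 0.0293). The gene shares 737 of its 4865 exon bases with another annotated gene of the same strand that had no counts. *Flrt2* had 3308, 3419 and 3702 normalised counts at 13.5 dpc against 1479, 3123 and 2054 at 15.5 dpc. Its samples did not overlap between the stages, but the wide spread at 15.5 dpc left the log2 fold change of -0.65 (95% interval -1.22 to -0.07) outside the call (adjusted p = 0.0963). Without replicate 2 of that stage *Flrt2* was called, with a log2 fold change of -0.96. It was also called when a trend with gene length was removed, with a smaller log2 fold change of -0.46. *Flrt1* changed by -0.32 (95% interval -0.94 to 0.30). *Klb*, the co-receptor of the hormone Fgf21, changed by -0.08 (95% interval -0.52 to 0.37), and *Kl*, the co-receptor of Fgf23, with 16.5 ± 3.59 and 10.5 ± 1.83 normalised counts in the 2 stages, by -0.65 (95% interval -1.33 to 0.03). With counts of 22, 15 and 23 at 13.5 dpc and 7, 9 and 10 at 15.5 dpc, *Kl* passed the filter on low counts only through the earlier stage.

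Of the 7 feedback inhibitors tested, *Spred1* and *Spred3* fell and the other 5 did not pass the test. Spred proteins hold back Ras at the membrane. *Spred1* had 1138, 1145 and 1157 normalised counts at 13.5 dpc against 638, 912 and 758 at 15.5 dpc (log2 fold change -0.57, standard error 0.135, adjusted p = 0.0233). *Spred3* had 142, 164 and 175 at 13.5 dpc against 96.9, 120 and 86.9 at 15.5 dpc (log2 fold change -0.66, standard error 0.163, adjusted p = 0.0277). *Spred2* changed by -0.39, with samples that overlapped and a 95% interval of -0.92 to 0.13 (adjusted p = 0.232), and was called without 15.5 dpc replicate 2 (-0.65, adjusted p = 0.0108).

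Sprouty proteins act on the receptor and Ras step, and *Dusp6* encodes the phosphatase that removes phosphate from ERK in the cytoplasm. *Spry2* had 371, 366 and 383 normalised counts at 13.5 dpc against 350.1, 393 and 394 at 15.5 dpc. Its log2 fold change was 0.02 (95% interval -0.21 to 0.25, adjusted p = 0.882), and it changed sign under 5 other analysis settings and without 1 of the samples. *Spry1* (-0.22, 95% interval -0.45 to 0.01), *Spry4* (-0.41, 95% interval -0.80 to -0.03) and *Dusp6* (-0.21, 95% interval -0.45 to 0.02) had negative fitted changes with adjusted p of 0.139, 0.106 and 0.158. For these 3 genes the highest later sample was below the lowest earlier one. *Spry1* and *Dusp6* were called when library size alone was used or a trend with gene length was removed, but not when that trend was removed together with a replicate block (adjusted p = 0.0786 and 0.0721). *Dusp6* was also called without 15.5 dpc replicate 1, and *Spry4* without 15.5 dpc replicate 2. The difference between the Spred and the Sprouty genes was not tested.

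The ETS factors *Etv4* and *Etv5*, which are widely read as targets of FGF signalling, fell to a like extent. *Etv5* (chr16:22381309-22439719, mm10) had 374, 352 and 355 normalised counts at 13.5 dpc against 213, 242 and 222 at 15.5 dpc, a log2 difference of -0.67 (standard error 0.102, 95% interval -0.91 to -0.43, adjusted p = 0.00482). *Etv4* had 157, 138 and 137 at 13.5 dpc against 102, 83.9 and 84.4 at 15.5 dpc, a log2 difference of -0.68 (standard error 0.142, 95% interval -1.01 to -0.34, adjusted p = 0.0159). The later levels were 62.7% and 62.5% of the earlier ones. *Etv1* had overlapping stages and changed by -0.36 (95% interval -0.78 to 0.07, adjusted p = 0.184), and was called without 15.5 dpc replicate 2 (-0.50, adjusted p = 0.0436). Of all 50-base windows of the *Etv5* transcripts, 24.5% also occur in a transcript of another annotated gene, and 9.05% of those of *Etv1* do. For the other tested members this share was at most 2.47%. In the annotation used for counting, the exons of *Etv5* and *Etv1* overlapped no other gene. Whether the shared windows affected the counts was not tested.

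By the thresholds of the study's methods (adjusted p at or below 0.1, above 100 normalised counts in at least 1 stage, with a fold below 0.6 or above 1.6), 4 members differed. They were *Fgf9*, *Fgfr2*, *Fgfr4* and *Flrt3*, each lower at 15.5 dpc. Of all protein-coding genes tested, 10.4% passed the same thresholds. When library size alone was used for scaling, 11 members met these thresholds, and without 15.5 dpc replicate 2, 7 did. Which members passed also changed. Without 15.5 dpc replicate 1, *Fgfr2* (log2 fold change -0.676) and *Flrt3* (-0.728) missed the fold limit. *Flrt3* also missed the adjusted p limit without 13.5 dpc replicate 1 (0.101), 13.5 dpc replicate 2 (0.102) or 15.5 dpc replicate 3 (0.103). With a trend with gene length removed, *Fgfr2* (-0.602) missed the fold limit and *Fgfr3* (0.694) passed as a higher gene.

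Levels of different members were ordered within 13.5 dpc by TPM, since longer genes collect more reads. *Fgfrl1* (120 ± 4.21 TPM), *Flrt2* (101 ± 8.69) and *Fgfr1* (60.9 ± 3.14) came first, and the first 2 did not overlap with their neighbours in the order. The lowest *Fgfr1* sample and the highest *Fgfr4* sample both stood at 57.3 TPM. *Fgfr4* (55.9 ± 1.94), *Spry1* (55.0 ± 4.10) and *Dusp6* (52.0 ± 2.05) followed and overlapped from each to the next. *Fgfr2* (43.6 ± 4.26) and *Spry2* (40.0 ± 1.97) also overlapped (SD, n = 3 for each). The secreted ligands were all below the signalling receptors, led by *Fgf18* (8.81 ± 2.47), *Fgf9* (6.69 ± 0.312) and *Fgf1* (5.76 ± 0.370), with *Fgf10* at 2.74 ± 0.383 TPM. At 15.5 dpc *Fgfrl1*, *Flrt2* and *Fgfr1* again headed the order, though with samples that overlapped, while *Fgfr4* moved from place 4 to place 9, *Fgfr3* from 14 to 10 and *Fgf9* from 19 to 25.

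Other genes of the pathway were described from lists written with earlier results of these data known. Of 25 adaptor, Ras and ERK kinase genes, all tested, 3 fell and none rose. They were *Plcg1* (log2 fold change -0.71), which encodes a phospholipase recruited by receptors, the adaptor *Gab1* (-0.46) and *Nras* (-0.33). Of 32 genes, 29 of them tested, for heparan sulfate proteoglycans, their synthesis and FGF carriers, 7 fell and 2 rose. The lowest were the glypicans *Gpc2* (-1.27) and *Gpc6* (-1.11), which carry heparan sulfate at the cell surface, and the higher ones were *Fgfbp1* (1.84), which releases FGFs from the matrix and whose low counts passed the filter only through the later stage, and the heparan sulfate synthesis gene *Extl3* (0.50). Of 24 further ERK response genes, 21 of them tested, 4 fell and 3 rose, with *Dusp9* (-0.90), another ERK phosphatase, and *Bcl2l11* (-0.62), an apoptosis factor, as the lowest and *Junb* (1.03) and *Phlda1* (0.64) as the highest. In these 3 lists the share of genes that fell was 3 of 25, 7 of 29 and 4 of 21, against 10.7% of all genes. The median log2 fold changes were -0.24, -0.27 and -0.09. A last list held 9 further genes named for FGFs, of which *Fgf4* and *Fgf6* had no counts and *Fibp*, *Fgfr1op* and *Fgfr1op2* were tested. Their log2 fold changes were 0.07 to 0.14, with adjusted p of 0.358 to 0.631.

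Markers of several cell types of the pancreas also differed between the stages. The summed level of 11 acinar markers was 3660 to 4280 CPM at 13.5 dpc and 12000 to 22400 at 15.5 dpc, with 10 of them higher, and that of 14 epithelial markers was 3160 to 3310 CPM and 4370 to 6040, with 9 higher and none lower. The 17 tested of 18 mesenchymal markers summed with the untested one to 11100 to 12500 CPM at 13.5 dpc and 8240 to 12300 at 15.5 dpc, with 5 lower and 2 higher. Among 7 mesothelial markers 1 rose and 1 fell (348 to 351 CPM and 310 to 343). Of 7 erythroid markers 4 fell and 1 rose (927 to 1150 CPM and 88 to 120), of 6 tested smooth muscle markers 3 rose (170 to 178 CPM and 186 to 255), and of 12 endocrine markers 3 rose and 3 fell (2450 to 2630 CPM and 2480 to 3950). Of 10 endothelial markers 1 rose, of 8 spleen and immune markers 2 fell, and of 8 cell cycle genes none was called. Of 5 tested liver and intestine markers 1 rose and 1 fell. None of these markers was at 0 in all samples. For comparison, 11.6% of all genes tested were called higher and 10.7% lower. In whole pancreata, fewer cells of a type and less RNA per cell cannot be told apart, and the part of these marker differences in the change of any FGF gene was not tested.

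The samples at 15.5 dpc differed among themselves more than those at 13.5 dpc, and differences between samples followed gene length in each stage except between 13.5 dpc replicates 1 and 2. Over all genes tested, the log2 difference of replicate 1 to replicate 2 at 15.5 dpc had a Spearman correlation of -0.605 with exon length, and over the 28 FGF genes of -0.560, given as a description across genes of 1 pair of libraries. The other 15.5 dpc pairs gave -0.508 and 0.545 over all genes, and the 13.5 dpc pairs gave -0.0302 for replicates 1 and 2, and -0.340 and -0.325 for the others. *Flrt2*, *Flrt3*, *Flrt1* and *Spred2*, with exon lengths of 4619 to 7721 bases, were lowest in replicate 1 and highest in replicate 2. When a trend with exon length was removed from each library, 16 members were called, 15 lower and 1 higher, and 32.9% of all genes were called. The 13 members called without this correction were among the 16.

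**Figure D4:**
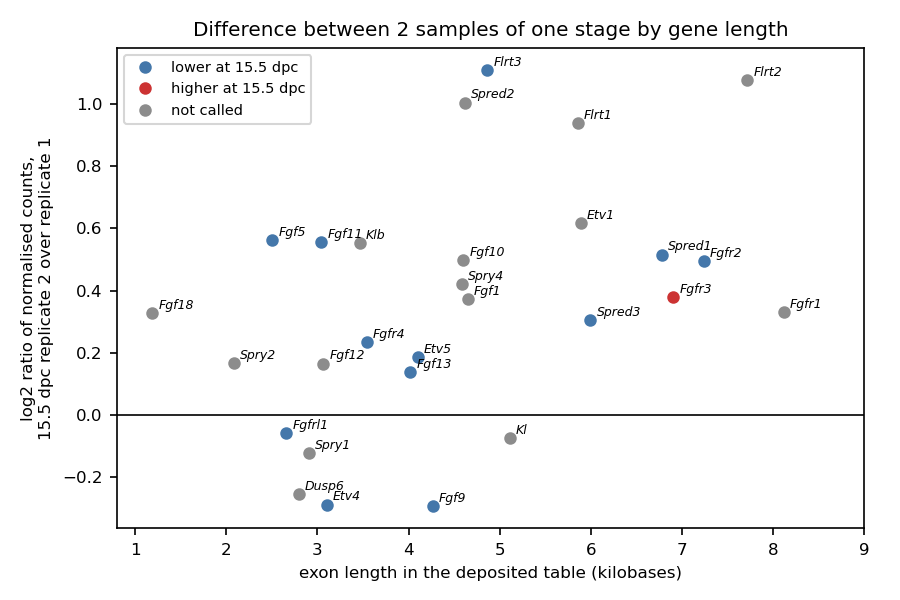
Log2 ratio of the normalised counts of 15.5 dpc replicate 2 over replicate 1 (vertical axis) against exon length in kilobases (horizontal axis) for the 28 tested FGF genes, each 1 labelled point coloured by its call between the stages. *Flrt3*, *Flrt2*, *Spred2* and *Flrt1* lie highest, whereas *Etv4*, *Dusp6* and *Fgf9* lie below 0.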

How the data were processed

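The authors aligned single-end reads of poly(A)-enriched, strand-specific libraries to mm10 with GSNAP and counted uniquely aligned reads per Ensembl gene with featureCounts 1.4.6, and they deposited the raw counts with exon lengths. Whether counting used the strand is not given in the sources used here. All 6 sample columns were used. The 37224 gene identifiers were matched to symbols (35449 matched). The members and gene lists were chosen with earlier results of these data known, and every member was named.

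The stages were compared with edgeR 4.0.16 under R 4.3.3 (filterByExpr, TMM factors of 0.847 to 1.08, quasi-likelihood test without covariates, Benjamini-Hochberg adjustment over all genes tested, calls at 0.05). Standard errors are the log2 fold change over the root of the F statistic, and intervals are 95%. Normalised counts refer to an effective library of 12636988 counts, the geometric mean of the samples. TPM used the deposited exon lengths. Other pathway genes named are the called ones with the 2 highest and 2 lowest changes per list. Alternatives were DESeq2 1.42.0, other scalings and filters, a replicate block, removal of a lowess trend with exon length (span 0.5), genes above 1% of counts taken out, other thresholds and each sample left out. Steps were tested on simulated data. Figures were drawn with matplotlib 3.10.9. Upstream sequences were read from a RefSeq table, on GRCm38.p6.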

Additional observations from a re-analysis of the deposited data

How the results depend on the processing

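The count of 13 called members was 12 to 16 under the other scalings, filters and length corrections and with DESeq2. It was 5 to 18 with 1 sample left out, with 5 without each 13.5 dpc sample, 6 without 15.5 dpc replicate 3. The highest count, 18, came when 15.5 dpc replicate 2 was left out, a fit that called 48% of all genes. With library size alone, 15 members were called, all lower, as were 2952 of the 4085 genes called in all (26.2% of those tested), and the median of all genes was -0.22. The 4 members past the study's thresholds became 11 with library size alone, 2 with a fold below 0.5 or above 2, and 3 to 7 with 1 sample left out. Without the length trend the count was again 4, but with *Fgfr3*, as a higher gene, in place of *Fgfr2*. The median over the members was -0.61 with library size alone and -0.59 to -0.35 with 1 sample left out. The sign turned for *Fgf1* (-0.0563) and *Fgf18* (-0.00622) with library size alone, for *Fgf18* without the length trend (-0.038, and -0.027 with the replicate block), and for *Spry2* with library size alone (-0.185), upper quartile factors (-0.00851), no filter (-0.00089) and without the length trend (-0.0887, and -0.0981 with the block). With 1 sample left out, *Spry2* ranged from -0.00557 to 0.0767 and *Klb* from -0.193 to 0.0696. None of these was called in either direction. The median of the other secreted ligands was 0.136 with at least 10 counts in each sample, where *Fgf5* was not tested. The cause of these shifts was not tested. Same-numbered samples did not deviate together (correlations 0.273, -0.277 and 0.0451), and with the replicate block 11 members were called (17.2% of all genes), without *Fgf11* and *Fgfrl1*. Of 446 member values over all alternatives, 387 kept their direction and side of the threshold. Ligands with few reads are limited by depth.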
